A study of Mus musculus with 4 samples.

Results

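The testis-specific serine kinases and their partners were followed at the mRNA level in TSSK2-IP and control IgG-IP. The 9 mRNAs were chosen by symbol and comprised the 6 kinases Tssk1, Tssk2, Tssk3, Tssk4, Tssk5 and Tssk6, the kinase substrate Tsks, the co-chaperone Tsacc and the phosphatase subunit Ppp1cc. All 9 were present among the 21936 genes of the count table, and all 9 passed the filter on low counts that left 14722 genes for testing. The libraries came from germ cells of adult C57BL/6 mouse testes that were dissociated, cross-linked with paraformaldehyde and sonicated. Both groups shared this material. The pellet after low-speed centrifugation was precipitated either with an antibody against TSSK2 (TSSK2-IP, n = 2) or with non-specific mouse IgG, the control (IgG-IP, n = 2). The germ cells were not sorted by stage, no input library was analysed here, and the sources used here do not say how many mice went into a library or whether the replicates came from separate animals. All p-values therefore measure the spread between these libraries, which may be technical.

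TSSK kinases are related to the calmodulin-dependent protein kinases and are made almost only in developing and mature male germ cells. TSSK1 and TSSK2 sit with their substrate TSKS in the late chromatoid body (late-CB), a cytoplasmic granule of elongating spermatids, and loss of both kinases disturbs the mitochondrial sheath of the sperm tail. Transcription stops as the chromatin of the spermatid condenses, so the proteins of late spermiogenesis are made from stored mRNAs. The comparison asks whether the mRNAs that encode the precipitated kinase, its relatives and its partners were themselves found with TSSK2.

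Total counts lay between 3938922 and 9858941 per library, and 3 counts corresponded to 0.468 to 0.689 normalized CPM (counts scaled to library size with edgeR's TMM method). The control library IgG-IP replicate 1 stood apart from the other 3 libraries, so the fold change of each of the 9 mRNAs is given with and without it. The log2 difference between the control libraries had an SD of 1.08 over the tested genes. Of 8 spermatid markers and 6 spermatocyte markers, all were counted. Their summed level was 3325 and 3705 normalized CPM for the spermatid list in TSSK2-IP, 5148 in IgG-IP replicate 1 and 3826 in replicate 2, and 1774, 1864, 2804 and 1599 for the spermatocyte list in TSSK2-IP replicates 1 and 2 and IgG-IP replicates 1 and 2.

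Tssk1 and Tssk2 are neighbours on chromosome 16 of GRCm38, both intronless and on the plus strand, and 714 bases lie between them. Tssk1 (ENSMUSG00000041566) spans 17894223 to 17897922 and Tssk2 (ENSMUSG00000045521) spans 17898637 to 17900024. Their transcripts aligned over 964 bases with 84.4% identity, the closest pair among the kinases, whereas Tssk6 matched Tssk2 over only 153 bases with 75.8% identity. The longest identical run in their coding sequences was 113 bases. It is shown with 60 bases on either side. A read pair that lies wholly inside this run cannot be assigned to 1 of the genes. The libraries were sequenced in pairs of reads, each longer than this run before trimming. Only pairs shortened by trimming could therefore lie inside it, and how many did so was not tested. Capitals mark the 24 bases that differ, and the stretches are chr16:17894663-17894895 and chr16:17899045-17899277 on the plus strand.
Tssk1: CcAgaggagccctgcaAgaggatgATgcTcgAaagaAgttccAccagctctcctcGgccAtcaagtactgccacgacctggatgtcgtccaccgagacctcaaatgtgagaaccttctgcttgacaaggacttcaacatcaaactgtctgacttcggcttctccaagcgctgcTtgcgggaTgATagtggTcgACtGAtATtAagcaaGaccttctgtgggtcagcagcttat
Tssk2: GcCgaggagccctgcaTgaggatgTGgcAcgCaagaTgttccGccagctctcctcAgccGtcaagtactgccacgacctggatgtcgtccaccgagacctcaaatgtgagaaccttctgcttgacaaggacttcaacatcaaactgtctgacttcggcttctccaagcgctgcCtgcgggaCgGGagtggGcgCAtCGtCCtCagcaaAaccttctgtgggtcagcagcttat
Neither gene had a match of at least 150 bases with 97% identity elsewhere in the genome.

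Dgcr2 is read from the opposite strand, and 74 bases lie between its start and that of Tssk2, so these genes are read away from each other. The span of Dgcr2, 17839482 to 17898562, holds all of Tssk1. The 74 bases before the start of Tssk2 are shown, because they hold the whole gap between Tssk2 and Dgcr2. Beside them is a stretch of equal length upstream of Tssk1, which ends at 17894202, short of the annotated start at 17894223. The sequences are from RefSeq on GRCm38.p6, at chr16:17894129-17894202 and chr16:17898563-17898636 on the plus strand, and capitals mark the 19 bases of each that lie in words of 8 letters found in both.
Tssk1: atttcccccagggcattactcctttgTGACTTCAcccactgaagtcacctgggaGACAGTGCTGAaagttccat
Tssk2: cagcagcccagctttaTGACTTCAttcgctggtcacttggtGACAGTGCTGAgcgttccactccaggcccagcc
One shared word, TGACTTCA, is a form of TGACNTCA, which also takes in the full cyclic AMP response element TGACGTCA. These motifs were chosen after the sequences were seen, were searched on both strands and overlap one another. Of the 8 genes with an entry in the promoter table (all but Tssk5), 2 held TGACNTCA within 300 bases around the start, Tssk1 and Tssk2. Among all 32851 promoter windows of that length, 8.83% held TGACNTCA, 1.52% held TGACTTCA and 1.79% held TGACGTCA, and the last was found in 0 of the 8 genes.

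None of the 9 mRNAs passed the thresholds in TSSK2-IP against IgG-IP. At an adjusted p of at most 0.05 and a difference of at least 1 on the log2 scale (edgeR quasi-likelihood F test, Benjamini-Hochberg), 0 were higher and 0 were lower, against a background of 0.693% and 0% of all tested genes. At an unadjusted p under 0.05, 0 were higher and 1 (Tssk2) was lower in edgeR, where 8.34% and 4.89% of all genes were. DESeq2 placed 0 higher and 3 lower under this p (Tssk1, Tssk2 and Ppp1cc; 4.02% and 5.65% of all genes) and called 0 by both thresholds (0.752% higher and 0.0047% lower). The log2 fold change was below 0 for 6 of the 9 mRNAs and for 50.8% of all genes, and its median was -0.33 over the 9 and -0.02 over all tested genes. For 5 of the 9 mRNAs (Tssk1, Tssk2, Tssk4, Tsks and Ppp1cc) both TSSK2-IP libraries lay below both controls, an order found for 21.6% of all genes, and for none did both lie above both controls (27.3% of all genes). Against IgG-IP replicate 2 alone, both TSSK2-IP libraries lay below it for the same 5 mRNAs and above it for 1 (Tsacc), as for 40.7% and 40.4% of all genes. The 95% interval of the log2 fold change ended below 1 for 7 of the 9, all but Tssk3 and Tssk5 (all-gene share not computed). This count rested on the libraries, since it was 0 without TSSK2-IP replicate 1 or without TSSK2-IP replicate 2, 9 without IgG-IP replicate 1 and 8 without IgG-IP replicate 2.

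**Figure D1:**
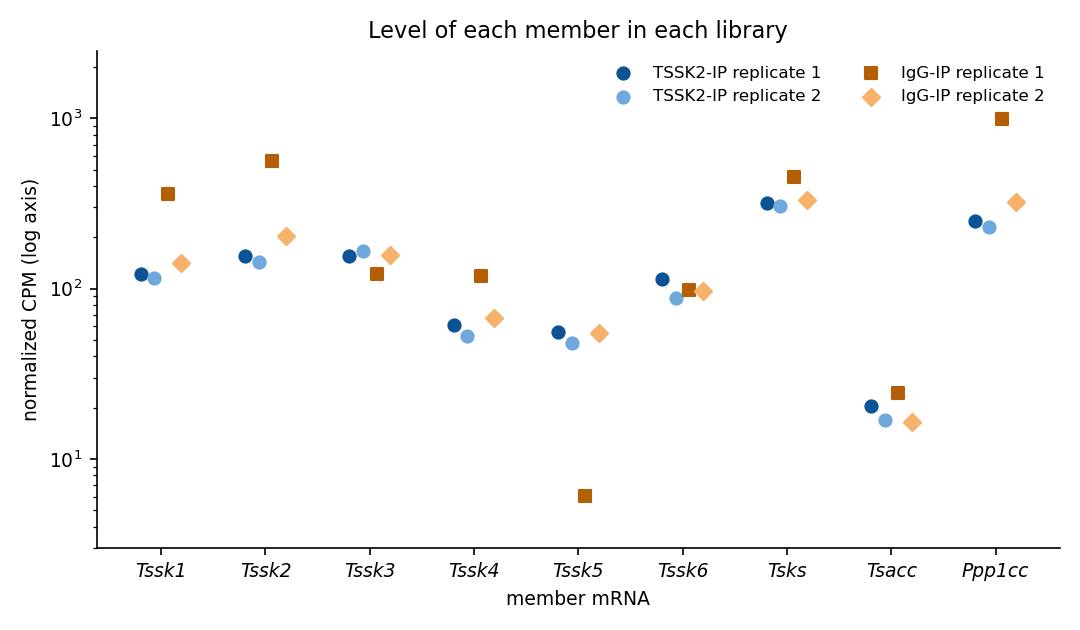
Normalized CPM (log axis) of the 9 mRNAs in the 4 libraries, 1 point per library. The TSSK2-IP libraries lie close together for each mRNA, IgG-IP replicate 1 is the highest library for 6 mRNAs, and it is far below the others for Tssk5 (6.08 against 47.8 to 56.0).

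Tssk2 encodes the precipitated kinase. Its normalized CPM was 156 and 143 in TSSK2-IP, 560.0 in IgG-IP replicate 1 and 205 in IgG-IP replicate 2, from counts of 754, 754, 3589 and 891. Both TSSK2-IP libraries lay below both controls, and the control libraries differed 2.74-fold from each other while the TSSK2-IP libraries differed 1.09-fold. For Tssk2 the log2 fold change was -1.35 (95% interval -2.69 to -0.02, adjusted p = 0.372, edgeR). Without IgG-IP replicate 1 it was -0.39, short of a 2-fold difference, and without IgG-IP replicate 2 it was -1.97.

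Tssk1 encodes the kinase that accompanies TSSK2 in the late-CB. It had 121 and 115 normalized CPM in TSSK2-IP, 361 in IgG-IP replicate 1 and 141 in IgG-IP replicate 2. The order of the libraries was that of Tssk2, with no overlap between the groups. A log2 fold change of -1.09 was fitted for Tssk1 (95% interval -2.30 to 0.13, adjusted p = 0.412, edgeR), which became -0.20 without IgG-IP replicate 1 and -1.68 without IgG-IP replicate 2. Its annotated exon shares 63 bases, 1.70% of its length, with Dgcr2 on the opposite strand, and the strand setting of the counting is not given in the sources used here. Tssk1 had 0.776 and 0.802 counts per count of Tssk2 in TSSK2-IP and 0.644 and 0.688 in IgG-IP. This ratio is free of library scaling. It was thus larger in both TSSK2-IP libraries than in both controls, where an exact permutation test of 2 against 2 libraries cannot go below p = 0.333 (two-sided).

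Among the genes around this locus, Dgcr2 had an order opposite to that of Tssk1 and Tssk2. Dgcr2 (ENSMUSG00000003166) had 83.1 and 86.8 normalized CPM in TSSK2-IP and 40.4 and 62.0 in IgG-IP, so both TSSK2-IP libraries lay above both controls. The log2 fold change of Dgcr2 was 0.73 (95% interval -0.17 to 1.64, adjusted p = 0.449, edgeR) and 0.51 without IgG-IP replicate 1. On the other side of Tssk2, 684 bases away, Ess2 had 24.3, 20.6, 47.1 and 24.1 normalized CPM in TSSK2-IP replicates 1 and 2 and IgG-IP replicates 1 and 2. The groups of Ess2 overlapped by a narrow margin, with IgG-IP replicate 1 the highest library as for Tssk1 and Tssk2. Its log2 fold change was -0.67 (adjusted p = 0.494, edgeR) and -0.05 without IgG-IP replicate 1. Gm20518, before Tssk1, had at most 9 counts in a library and was not tested.

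Tssk4 (ENSMUSG00000007591, chromosome 14, 55650184 to 55652539, plus strand) encodes a kinase of spermatids and sperm that phosphorylates the outer dense fibre protein ODF2. Its level was 60.9 and 52.7 normalized CPM in TSSK2-IP, 118 in IgG-IP replicate 1 and 67.6 in IgG-IP replicate 2. The groups did not overlap, and the fitted log2 fold change was -0.71 (95% interval -1.65 to 0.23, adjusted p = 0.481, edgeR). It was -0.19 without IgG-IP replicate 1 and -1.12 without IgG-IP replicate 2.

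Tssk3 and Tssk6 had log2 fold changes near 0. Tssk3, a kinase gene of haploid germ cells (ENSMUSG00000000411, chromosome 4, 129489014 to 129491022, minus strand, 2 exons), had 156 and 167 normalized CPM in TSSK2-IP and 122 and 157 in IgG-IP. The groups overlapped by a narrow margin, with IgG-IP replicate 1 the lowest library, and the log2 fold change was 0.21 (95% interval -0.82 to 1.24, adjusted p = 0.874, edgeR) and 0.10 without IgG-IP replicate 1. Tssk6 (ENSMUSG00000047654, chromosome 8, 69902184 to 69903518, plus strand, 1 exon) encodes a kinase needed for the condensation of sperm DNA. Tssk6 had 114 and 87.7 normalized CPM in TSSK2-IP and 98.8 and 97.4 in IgG-IP. Here the controls were the closer pair and lay between the TSSK2-IP libraries. Its log2 fold change of 0.04 (95% interval -0.89 to 0.98, adjusted p = 0.978, edgeR) was 0.11 without IgG-IP replicate 1, -0.08 with DESeq2's size factors and -0.03 with DESeq2. In this gene, 375 bases (28.1%) of the Tssk6 exon overlap Ndufa13 on the opposite strand, and Yjefn3 shares 15 bases. Ndufa13, a subunit of mitochondrial complex I, had 39.2, 43.8, 22.5 and 33.5 normalized CPM in TSSK2-IP replicates 1 and 2 and IgG-IP replicates 1 and 2 (log2 fold change 0.57, adjusted p = 0.527, edgeR, and 0.36 without IgG-IP replicate 1), and Yjefn3 had no more than 9.42. Reads of Tssk6 and Ndufa13 from the shared bases cannot be told apart if strand was not used.

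Tssk5 (ENSMUSG00000060794, chromosome 15, 76371952 to 76374938, minus strand, 8 exons) was low in a single control library. The counts were 270 and 251 in TSSK2-IP, 39 in IgG-IP replicate 1 and 238 in IgG-IP replicate 2, or 56.0, 47.8, 6.08 and 54.7 normalized CPM. IgG-IP replicate 2 lay between the TSSK2-IP libraries, and only IgG-IP replicate 1 was low, 8.52-fold below the mean of TSSK2-IP. Over both controls, Tssk5 had a log2 fold change of 0.78 (95% interval -0.65 to 2.22, adjusted p = 0.606, edgeR). It was -0.02 without IgG-IP replicate 1 and 3.02 without IgG-IP replicate 2, so the sign of the value rests on 1 library. The nearest coding genes on chromosome 15, named after their values were seen, were not low there. Hgh1, 514 bases from Tssk5, had 27.9 normalized CPM in IgG-IP replicate 1 and 10.6 to 14.3 in the other libraries, and Mroh1 had 326 there and 76.3 to 111 in the others. Among the somatic cell lists, those of Sertoli, Leydig and peritubular and vascular cells were lowest in IgG-IP replicate 1, and those of macrophages and erythrocytes were not. The sum over all 7 Sertoli cell markers was 19.3 normalized CPM there, 43.9 in IgG-IP replicate 2 and 39.2 and 56.4 in TSSK2-IP, and that over all 5 Leydig cell markers was 14.0, 34.9, 33.3 and 35.5. The 4 peritubular and vascular markers summed to 40.9 in IgG-IP replicate 1 and 44.8 to 81.8 in the others. The 4 macrophage markers summed to 18.3 there and 16.4 to 27.0 in the others, and the 3 erythrocyte markers to 1.09 there and 0.460 to 4.56 in the others. No marker of these lists was at 0 in all libraries, and the part of these cells in the Tssk5 value was not tested. The 6 spermatogonium markers summed to 30.7 normalized CPM in IgG-IP replicate 1 and 30.8 to 41.8 in the others. The libraries hold RNA precipitated from unsorted cells, so fewer cells of a type, less RNA per cell and a different recovery cannot be told apart.

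**Figure D2:**
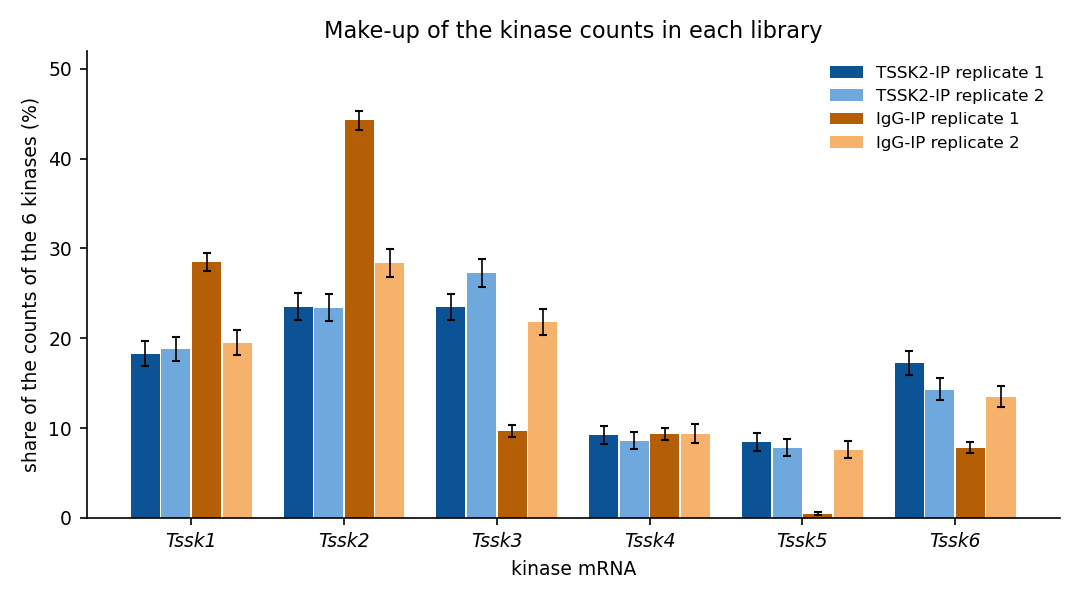
Share of each kinase in the summed counts of the 6 kinases (%), 1 bar per library with its exact 95% binomial interval, which covers counting error only. Tssk2 takes 44.2% in IgG-IP replicate 1 and 23.4% to 28.3% in the other libraries, and Tssk5 takes 0.481% there and 7.57% to 8.42% in the others.

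The make-up of the kinase counts shows the same split without any scaling between libraries. The 6 kinases together had 3205 and 3227 counts in TSSK2-IP, 8111 in IgG-IP replicate 1 and 3144 in IgG-IP replicate 2. Tssk2 made up 23.5% and 23.4% of them in TSSK2-IP, with exact binomial intervals of 22.1% to 25.0% and 21.9% to 24.9%. In IgG-IP replicate 2 its share was 28.3% (26.8% to 30.0%) and in IgG-IP replicate 1 it was 44.2% (43.2% to 45.3%). The share of Tssk2 was thus smaller in both TSSK2-IP libraries than in both controls, beyond counting error. Tssk3 and Tssk6 took 9.64% and 7.80% in IgG-IP replicate 1, against 21.8% to 27.2% and 13.5% to 17.2% in the other 3 libraries. Tssk4 kept a narrow range of shares, from 8.58% to 9.35%.

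Tsks (ENSMUSG00000059891, chromosome 7, 44943204 to 44958035, plus strand) encodes the testis-specific kinase substrate, which is phosphorylated by TSSK1 and TSSK2. It had 320.3 and 306 normalized CPM in TSSK2-IP, 455 in IgG-IP replicate 1 and 333 in IgG-IP replicate 2. Both TSSK2-IP libraries lay below both controls, but the distance to IgG-IP replicate 2 was small. For Tsks the log2 fold change was -0.33 (95% interval -1.61 to 0.95, adjusted p = 0.831, edgeR), and it was -0.03 without IgG-IP replicate 1 and -0.61 without IgG-IP replicate 2. Per count of Tssk2, Tsks had 2.05 and 2.13 counts in TSSK2-IP, 1.63 in IgG-IP replicate 2 and 0.813 in IgG-IP replicate 1.

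Tsacc (ENSMUSG00000010538, chromosome 3, 88282757 to 88296999, minus strand, 4 exons) encodes a co-chaperone that links TSSK6 to heat shock chaperones. Its counts of 98, 89, 157 and 72 gave 20.3 and 16.9 normalized CPM in TSSK2-IP and 24.5 and 16.5 in IgG-IP. The groups overlapped, with a log2 fold change of -0.14 (95% interval -1.03 to 0.74, adjusted p = 0.902, edgeR) that was 0.22 without IgG-IP replicate 1. On the same strand, 113 bases (10.2%) of its exons are shared with the annotated gene Gm38392, which had at most 8 counts in a library and was not tested.

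Ppp1cc (ENSMUSG00000004455, chromosome 5, 122158278 to 122175273, plus strand) encodes the gamma catalytic subunit of protein phosphatase 1, which has a splice form abundant in testis and sperm. It had the lowest log2 fold change of the 9, -1.45 (95% interval -2.97 to 0.07, adjusted p = 0.392, edgeR). Normalized CPM was 248 and 232 in TSSK2-IP, 991 in IgG-IP replicate 1 and 321 in IgG-IP replicate 2, so the groups did not overlap and the controls differed 3.09-fold. The value was -0.36 without IgG-IP replicate 1, again short of 2-fold, and without IgG-IP replicate 2 it was -2.12. Counts of Ppp1cc are uncertain. Its transcript has a copy on chromosome 7, annotated as Ppp1ccb, that matched it over 2321 bases with 99.8% identity, and the sources used here do not give how reads with several matches were counted. Ppp1ccb was not analysed here, and Ppp1cc was the only one of the 9 with a match of at least 150 bases and 97% identity outside its own locus. Per count of Tssk2, Ppp1cc had 1.59 and 1.62 counts in TSSK2-IP and 1.77 and 1.57 in IgG-IP.

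**Figure D3:**
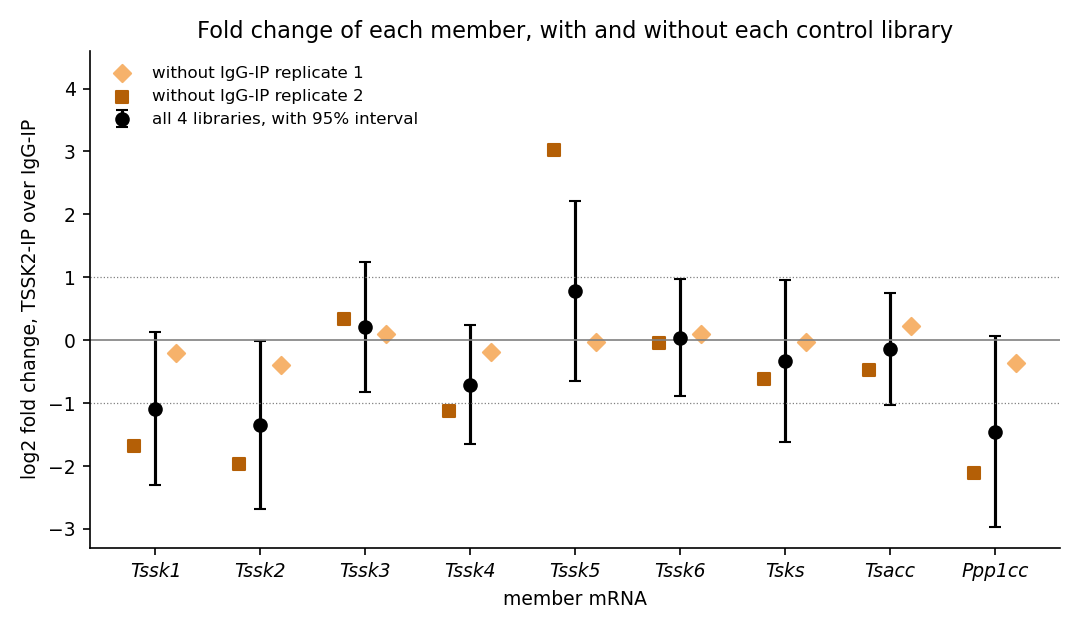
Log2 fold change of TSSK2-IP over IgG-IP for the 9 mRNAs. Black points with bars are the fit to all 4 libraries and its 95% interval, diamonds and squares are the fits without IgG-IP replicate 1 or 2, and dotted lines mark 2-fold. All diamonds lie between -0.39 and 0.22, while the squares reach from -2.12 for Ppp1cc to 3.02 for Tssk5.

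With each control library left out in turn, the calls among the 9 mRNAs changed. Without IgG-IP replicate 1, 0 were called by both thresholds, where 5.38% of all genes were called higher and 2.56% lower, and the median log2 fold change was -0.03. In that fit 0 were higher and 2 were lower at an unadjusted p under 0.05 (17.4% and 11.3% of all genes). Without IgG-IP replicate 2, Tssk1, Tssk2, Tssk4 and Ppp1cc were called lower and Tssk5 higher in edgeR, and the median was -0.61. Of all genes, 17.9% were called higher and 17.4% lower in this fit. In these fits the lone control is assumed to vary like the TSSK2-IP libraries, so their calls and p-values hold no spread between controls. The data go against this assumption for Tssk2, where the controls differed 2.74-fold and the TSSK2-IP libraries 1.09-fold. The log2 difference between IgG-IP replicate 1 and IgG-IP replicate 2 was 1.63 for Ppp1cc, 1.45 for Tssk2 and 1.35 for Tssk1, above 97.6%, 94.9% and 93.1% of all tested genes, and -3.09 for Tssk5, above only 0.401% of them. The fold changes of these 4 mRNAs moved the most of the 9 between the fits without each control.

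**Figure D4:**
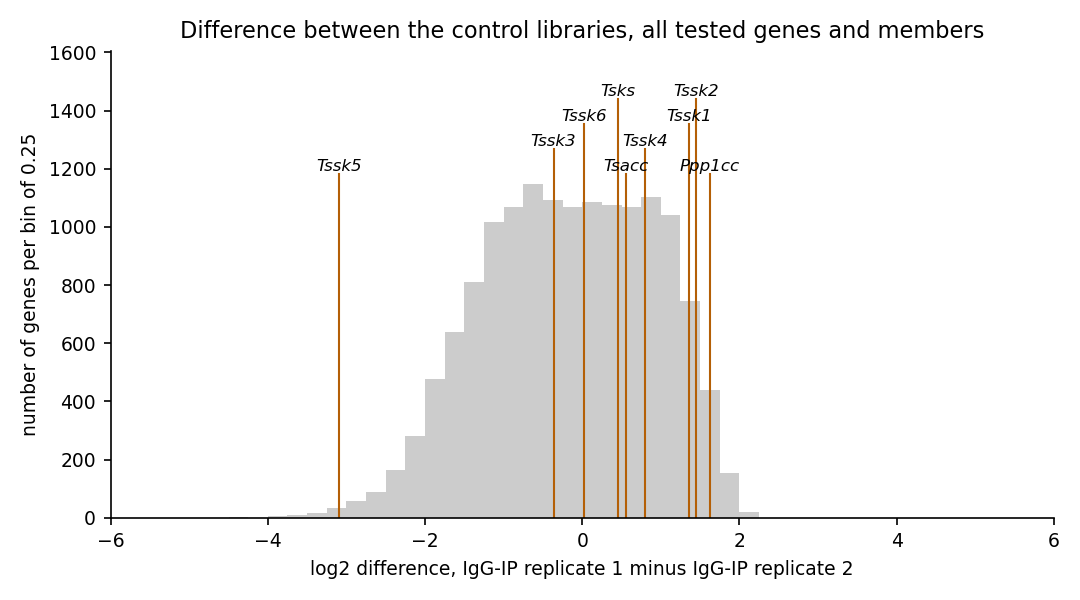
Number of tested genes (grey bars, bins of 0.25) by the log2 difference between the control libraries, IgG-IP replicate 1 minus IgG-IP replicate 2, with the 9 mRNAs as lines. Tssk1, Tssk2 and Ppp1cc lie near the upper end, from 1.35 to 1.63, and Tssk5 lies near the lower end at -3.09.

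To compare the mRNAs with one another, levels were divided by exon length. In TSSK2-IP, Tsks had the highest level with 162 ± 5.30 normalized CPM per kb, followed by Tssk3 (126 ± 6.39), Tssk2 (108 ± 6.54), Tssk6 (75.6 ± 14.0), Ppp1cc (70.1 ± 3.38), Tssk4 (33.1 ± 3.39), Tssk1 (31.9 ± 1.18), Tssk5 (25.0 ± 2.80) and Tsacc (16.7 ± 2.15; SD, n = 2). Neighbours in this order did not overlap between libraries, except that Tssk6 overlapped Ppp1cc and Tssk4 overlapped Tssk1. In IgG-IP, Tssk2 had the highest mean level per kb, 275 ± 181, ahead of Tsks with 204 ± 44.6 and Ppp1cc with 192 ± 138 (SD, n = 2). These 3 overlapped, as did most neighbours in the control order. In IgG-IP replicate 2 alone, Tsks led with 172 normalized CPM per kb, ahead of Tssk2 with 147, Tssk3 with 123 and Ppp1cc with 93.7. The place of Tssk1 depended on its length, which is 3700 bases in GENCODE and 1451 bases in RefSeq. With the RefSeq length its level in TSSK2-IP was 81.5 normalized CPM per kb on average, with 83.6 and 79.3 in the libraries, and it moved from the seventh to the fifth place.

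The genes whose pattern over the 4 libraries was most like that of Tssk2 were sought among 1616 protein-coding genes of similar level, by the Euclidean distance of centred log2 CPM. The 5 nearest were Rbm27 (distance 0.0264), Cct7 (0.0266), Hnrnpul1 (0.0449), Cul3 (0.0482) and Arfgef2 (0.0503). Their log2 fold changes lay between -1.39 and -1.32, and between -0.45 and -0.33 without IgG-IP replicate 1. Rbm27, an RNA-binding protein, had 127 and 115 normalized CPM in TSSK2-IP and 450.0 and 168 in IgG-IP. IgG-IP replicate 1 was the highest library for each of them, and the ranking was not made without it. Among the 9 mRNAs, Ppp1cc was the nearest to Tssk2 at 0.138, with 69 of the 1616 genes nearer, followed by Tssk1 at 0.257, with 226 nearer. Tssk5 was the farthest at 4.16, with 1611 nearer.

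Genes were also taken from 4 lists: chaperones, protein phosphatase 1 subunits and regulators, other haploid germ cell kinases, and mitochondrial sheath and annulus genes. With all 4 libraries, none of the listed genes passed the thresholds in edgeR or in DESeq2. The background was 0.693% higher and 0% lower in edgeR and 0.752% and 0.0047% in DESeq2. At an unadjusted p under 0.05, the counts of the lists below stand against 8.34% of all genes higher and 4.89% lower in edgeR and 4.02% and 5.65% in DESeq2. In the chaperone list, 18 of 18 genes were tested, 0 were called, and 1 was higher and 2 were lower at an unadjusted p under 0.05 (1 and 7 in DESeq2). The median over the list was -0.74. In 11 genes both TSSK2-IP libraries lay below both controls and in 1 above both (21.6% and 27.3% of all genes). These counts were 6 and 2 of 13 phosphatase genes, 9 and 2 of 18 other kinases and 10 and 3 of 18 mitochondrial sheath genes. Values of the chaperone list ran from Hspa2, the testis HSP70 protein (log2 fold change -1.60, adjusted p = 0.422, edgeR), to the immunophilin Fkbp5 (1.28, adjusted p = 0.260). Hspa2 had 536 and 491 normalized CPM in TSSK2-IP and 2363 and 754 in IgG-IP. Without IgG-IP replicate 1, Hspa2 was at -0.50 and Fkbp5 at 0.95 on the log2 scale.

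Among 13 other catalytic subunits and regulators of protein phosphatase 1, 0 were called, and the median log2 fold change was -0.33. At an unadjusted p under 0.05, 1 was higher and 0 were lower in edgeR (1 and 3 in DESeq2). Ppp1cb, the beta catalytic subunit, was at 1.35 (95% interval 0.46 to 2.25, adjusted p = 0.217, edgeR), where Ppp1cc was at -1.45. Ppp1cb had 106 and 109.8 normalized CPM in TSSK2-IP and 39.5 and 44.8 in IgG-IP, so its groups did not overlap and its controls lay close together. Without IgG-IP replicate 1, Ppp1cb was at 1.32 on the log2 scale. Spz1, a transcription factor of the testis, was at the other end with -1.43 (adjusted p = 0.467), and -0.50 without IgG-IP replicate 1.

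Of 18 other kinases of haploid germ cells, 0 were called, 0 were higher and 2 were lower at an unadjusted p under 0.05 (0 and 7 in DESeq2), and the median was -0.80. They ran from the casein kinase subunit Csnk2a2 (-1.30, adjusted p = 0.355, edgeR) to the glycogen synthase kinase Gsk3b (0.45, adjusted p = 0.683). Of 18 genes of the mitochondrial sheath and annulus, 0 were called, 1 was higher and 0 were lower at an unadjusted p under 0.05 (1 and 4 in DESeq2), and the median was -0.70. They ran from the outer dense fibre gene Odf2 (-1.53, adjusted p = 0.616, edgeR), with 2546 and 2484 normalized CPM in TSSK2-IP and 10705 and 3830 in IgG-IP, to Glipr1l1 (1.21, adjusted p = 0.283), with 43.1, 45.1, 12.2 and 26.2. Without IgG-IP replicate 1, Csnk2a2 was at -0.12, Gsk3b at 0.59, Odf2 at -0.55 and Glipr1l1 at 0.81. Without IgG-IP replicate 1, the medians of the chaperones, phosphatase genes, kinases and mitochondrial sheath genes were -0.14, -0.09, -0.0018 and -0.05. Without IgG-IP replicate 2 they were -1.25, -0.55, -1.27 and -1.17, and 13, 5, 11 and 11 genes were called lower, as were 17.4% of all genes. The median of all genes was -0.0028 and 0.16 in these fits.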

How the data were processed

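Directional RNA libraries of 2 TSSK2-IP and 2 IgG-IP samples were analysed, and DDX4-IP samples were not analysed here. According to the submitters' processing notes and the methods, the authors used Trimmomatic 0.39 for trimming, STAR for mapping to GRCm38 and featureCounts 2.0.3 for counting, and deposited raw counts per gene without normalization. Strand setting and the treatment of reads with several matches are not given in the sources used here. Of 21936 identifiers, 21817 were named through GENCODE vM21. Counts were fitted with edgeR 4.0.16 (R 4.3.3; TMM, filterByExpr, glmQLFit, glmQLFTest, group as the only term) and p-values were adjusted over all 14722 genes tested. Standard errors were the log2 fold change divided by the root of F, and 95% intervals used the t distribution. Likeness used log2 CPM with a prior count of 2. Shared sequence was searched with BLAST+ 2.17.0 (megablast against the genome, blastn between members). The binomial intervals of shares and the floor of 3 counts cover counting error only, while the intervals of fold changes include the spread between libraries.

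Named were the 9 mRNAs, genes sharing their exons or next to Tssk1 and Tssk2, the 5 genes most like Tssk2, and the highest and lowest gene of each list. Hgh1 and Mroh1 fall outside this rule and were named after their values were seen. The members and lists were chosen with earlier results of these data known. Alternatives were DESeq2 1.42.0, its size factors, upper-quartile normalization, other filters, the replicate number as a block and leaving out each library. RefSeq lengths and the alternatives for the lists were added after seeing the data. On simulated counts with 200 of 14722 genes changed 4-fold at the estimated dispersion of 0.135, edgeR recovered 62 and called 2 others. DESeq2 recovered 84 and called 8 others. With a dispersion of 0.02, edgeR recovered 188 and DESeq2 163, so the rate depends on the dispersion set.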

Additional observations from a re-analysis of the deposited data

How the results depend on the processing

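Across 10 alternatives, Tssk1, Tssk2, Tssk4, Tsks and Ppp1cc kept a negative and Tssk3 a positive log2 fold change. Tssk6 was negative with DESeq2 (-0.034) and with its size factors in edgeR (-0.085), and with a library left out it was -0.039 without IgG-IP replicate 2 and ranged from -0.18 (without TSSK2-IP replicate 1) to 0.21 (without TSSK2-IP replicate 2). Tssk5 ranged from -0.021 without IgG-IP replicate 1 to 3.02 without IgG-IP replicate 2, and Tsacc from -0.47 without IgG-IP replicate 2 to 0.22 without IgG-IP replicate 1. DESeq2's size factors moved the median of all genes from -0.02 to -0.14, and relative to it the members' median was -0.31 and -0.33. No member was called except in the fit without IgG-IP replicate 2, where the cause was not tested. With each library left out, members called higher ranged from 0 to 1, members called lower from 0 to 4, and their median from -0.61 to -0.034, with IgG-IP replicate 1 or 2 left out at the ends. All genes called higher numbered 102 and ranged from 23 to 2755 with a library left out (23 without TSSK2-IP replicate 1, 33 without TSSK2-IP replicate 2, 894 and 2755 without IgG-IP replicate 1 and 2), and those called lower from 0 to 2688. The higher count was 160 with DESeq2, 20 with upper-quartile normalization, 283 without a filter, 29 with at least 10 counts in every library and 274 with the replicate block. The lower count was 1, 24 and 3 with DESeq2, without a filter and with the block, and 0 otherwise with all libraries. The cause was not tested.

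With the replicate number as a block, 0 members were called. Deviations of same-numbered libraries correlated at 0.13 over genes. The other pairing gave -0.13, which only mirrors this value with 2 libraries per group, so the correlation cannot decide on pairing. In the paper's co-immunoprecipitation, the lysate was split between the TSSK2 and IgG beads, and the RNA precipitation is said to follow that protocol. The labels do not say that the numbers pair libraries. With a library left out, genes called higher ranged from 0 to 1 in the chaperone, phosphatase and mitochondrial sheath lists, and genes called lower from 0 to 13, 0 to 5 and 0 to 11. For the other kinases the lower count ranged from 0 to 11 and the median from -1.27 to -0.0018. The order of levels per kb changed for 2 of 36 pairs of members with the longest transcript as length and for 3 with RefSeq lengths. The interval count of 7 members was 5 without a filter and with the block, and 8 with upper-quartile normalization. That normalization placed 0 members higher and 3 lower at an unadjusted p under 0.05 in edgeR, as it did 870 and 1302 of 14722 genes. Depth gave the members 39 to 6353 counts per library.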
